A study of Mus musculus with 12 samples.

Results

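The hairpins described here target kinases that phosphorylate splicing factors, together with their relatives of the DYRK and HIPK families. They were the hairpins whose target symbol was a CLK, SRPK, PRPF4B, DYRK or HIPK gene. The rule found 59 of the 3243 hairpins in the count table, against 15 of its 732 gene symbols. The CLK genes had 17 hairpins (5 each for Clk1 and Clk2, 3 for Clk3 and 4 for Clk4). Srpk1, Srpk2 and Srpk3 had 3 each, as did Prpf4b. The DYRK genes had 18 (5 each for Dyrk1a, Dyrk1b and Dyrk4 and 3 for Dyrk3) and the HIPK genes 12 (3 for Hipk1, 5 for Hipk2 and 4 for Hipk3). The table listed no hairpin under Dyrk2 or Hipk4. Each hairpin is named below by its gene and its number in the table.

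All members belong to the CMGC group of kinases, which also holds the cyclin-dependent kinases and the MAP kinases. SRPK kinases phosphorylate the arginine-serine repeats of SR proteins, mostly in the cytoplasm, and this step lets SR proteins enter the nucleus. CLK kinases phosphorylate the same proteins further inside the nucleus and release them from nuclear speckles to sites of transcription and splicing. PRP4 kinase, the product of Prpf4b, acts on the spliceosome itself. DYRK kinases phosphorylate their own activation loop on tyrosine as they are made and then act on serine and threonine of other proteins, whereas HIPK kinases are nuclear kinases that bind homeodomain transcription factors and regulators of apoptosis.

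The screen asked which kinases control the amount of UHRF1, the protein that brings the maintenance methyltransferase DNMT1 to replicating DNA. E14 mouse embryonic stem cells carrying a UHRF1-GFP construct were transduced in serum with the TRC lentiviral mouse kinase library of short hairpin RNAs, and all 4 groups of 3 libraries came from these cells. Unsorted cells grown in serum and LIF were collected as Serum/LIF day 0 and, later, as Serum/LIF day 7, and 2i GFP- and 2i GFP+ were the fluorescence-sorted fractions of cells grown in 2i/LIF, a serum-free medium with LIF and the inhibitors PD0325901 (MEK) and CHIR99021 (GSK3). UHRF1 is degraded in 2i, so a cell that stayed GFP+ had kept the construct's protein. The readout was the count of each integrated hairpin in genomic DNA, which says how common its carriers were. It does not measure knockdown, target expression or cell identity, and none of these was checked here.

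Total counts ran from 2435551 to 5466825 per library. Member hairpins took 1.52% ± 0.00976 (SD, n = 3) of the counts at day 0, 1.57% ± 0.0193 at day 7, 1.54% ± 0.0115 in GFP- cells and 1.59% ± 0.104 in GFP+ cells. While the summed share hardly moved, the number of hairpins that carried it fell. Between 50 and 51 members were detected in each day 0 library, 55 to 56 at day 7, 47 to 50 in GFP- cells and 23 to 28 in GFP+ cells. In GFP+ cells 28 members (47.5%) were at 0 in all 3 libraries, against 33% of all hairpins. GFP+ replicate B had the fewest, with 23 members detected, where replicates A and C had 28 and 26. Over all hairpins it also detected fewer (1538, against 1868 and 1906), and its total count was lower (2435551, against 4185076 and 4656234).

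Which members were at 0 in GFP+ cells went with how common they were at the start. Of the 22 members under 50 CPM at day 0 (counts scaled to library size), 20 were at 0 in GFP+ cells (90.9%, against 68.5% of all hairpins of that level). From 50 to under 200 CPM it was 6 of 17 (35.3%, all hairpins 31.7%), and from 200 to under 500 CPM 2 of 13 (15.4%, all hairpins 5.78%). All 7 members at 500 CPM or more were present in every GFP+ library. Members and the library as a whole started at similar levels, with median day 0 values of 105 and 116 CPM.

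The main comparison, 2i GFP+ against 2i GFP-, asked which hairpins were carried by cells that retained UHRF1-GFP. Of the 59 members, 43 reached 0.5 CPM in at least 3 of the 6 libraries and were tested with edgeR's quasi-likelihood test. A hairpin was called higher at a log2 fold change over 1, or lower under -1, where its p, adjusted over all hairpins tested, was under 0.05. In GFP+ cells 5 members were higher (11.6%, against 8.58% of all hairpins tested) and 16 were lower (37.2%, against 23.5%). The other 179 hairpins against CMGC kinases gave 16 higher (11.1%) and 37 lower (25.7%) of 144 tested. With scaling by total counts alone the members' split was 3 higher and 19 lower, where 4.77% and 27.7% of all hairpins tested were called.

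The higher hairpins belonged to Clk4, Clk1 (2 hairpins), Dyrk4 and Dyrk3, and none to SRPK, PRP4 or HIPK genes. In the main quasi-likelihood test these 3 families had 0 of 19 tested members called higher. In that direction 1, the Hipk1 hairpin 709, had an unadjusted p under 0.05. DESeq2 called Hipk1 709 higher, as did edgeR's quasi-likelihood test with all 4 groups in 1 fit or without GFP+ replicate B. The exactTest of edgeR called none in these families. Of the lower calls, 5 fell to CLK, 3 to SRPK, 5 to DYRK and 3 to HIPK hairpins. The median log2 fold change was -2.77 over the 43 members, -1.13 over the other CMGC hairpins and -0.88 over all hairpins tested. The lower side of these numbers depends in part on the filter. All 16 untested members were at 0 in GFP+ cells, and 12 of the tested ones passed through their GFP- counts alone and so had to be lower. In this comparison, each lower call given below for a hairpin at 0 in every GFP+ library is of this kind. Its adjusted p is therefore no evidence of direction.

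Clk4, a nuclear SR protein kinase, had the largest increase of any member in this test. Hairpin Clk4 747 had 787, 708 and 549 CPM in GFP- replicates A, B and C (CPM here and below are scaled over the 6 libraries of the comparison) and 5780, 6480 and 6010 CPM in GFP+ replicates A, B and C. Every GFP+ library lay far above every GFP- library, and the GFP+ libraries lay close together. The log2 fold change was 3.16 (SE 0.198, adjusted p = 0.000555, edgeR's quasi-likelihood test), the 14th smallest p of 2600 hairpins. The other 3 Clk4 hairpins, 744, 745 and 746, were at 0 in all GFP+ libraries and too rare in GFP- cells to be tested. Hairpin 747 already made up 96.6% ± 3.86 (SD, n = 3) of the Clk4 counts at day 0, so nearly all Clk4 counts came from this hairpin from the start.

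Clk1, the founding member of the family, had hairpins that moved both ways. Hairpin Clk1 666 had 645, 831 and 806 CPM in GFP- cells and 2290, 3250 and 2330 CPM in GFP+ cells. Clk1 664 had 1430, 1200 and 1280 CPM in GFP- cells and 1950, 3950 and 2310 CPM in GFP+ cells. Neither hairpin overlapped between groups, and GFP+ replicate B was the highest library for both. The log2 fold changes were 1.79 (SE 0.24, adjusted p = 0.00736) for Clk1 666 and 1.07 (SE 0.307, adjusted p = 0.0399) for Clk1 664 by edgeR's quasi-likelihood test.

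Hairpins Clk1 667 and Clk1 665 went the other way. Clk1 667 had 418, 510 and 396 counts in the GFP- libraries and 0 in each GFP+ library, so it was at least 97.6-fold lower. Clk1 665 had 202, 137 and 34 counts and then 0, at least 26.4-fold lower. These bounds set each GFP+ library to a floor of 3 counts. The floor covers counting error only, because reads that PCR copied from 1 molecule cannot be told from others here. Both were called lower (adjusted p = 0.00736 and 0.0104, edgeR's quasi-likelihood test). They had passed the filter through GFP- counts alone, so this direction was fixed beforehand. The fifth hairpin, Clk1 668, had 63 counts in 1 GFP- library only and was not tested. The share of Clk1 counts held by 664 and 666 was 80.5% at day 0, 92% at day 7, 93.3% in GFP- and 100% in GFP+ cells.

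Dyrk4 and Dyrk3 each had 1 higher hairpin. DYRK3 is known for dissolving membraneless condensates, nuclear speckles among them, during mitosis, and DYRK4 is best known from developing sperm cells. Dyrk4 625 had 578, 768 and 619 CPM in GFP- cells and 1630, 3800 and 1760 CPM in GFP+ cells. Dyrk3 681 had 959, 765 and 815 CPM in GFP- cells and 1800, 3020 and 1630 CPM in GFP+ cells. As for Clk1, the groups did not overlap and GFP+ replicate B was the highest. The log2 fold changes were 1.87 (SE 0.394, adjusted p = 0.0123) for Dyrk4 625 and 1.35 (SE 0.302, adjusted p = 0.0153) for Dyrk3 681 by edgeR's quasi-likelihood test.

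The remaining hairpins of both genes did not follow. Dyrk4 622 had 48, 413 and 170 counts in GFP- cells and none in GFP+ cells, which is at least 46.1-fold lower (adjusted p = 0.0132, edgeR's quasi-likelihood test). Dyrk4 623, 624 and 626 did not pass the test, with log2 fold changes of -0.99, -2.82 and -0.38 and adjusted p from 0.373 to 0.709. Dyrk3 679 had 166, 53 and 167 counts in GFP- cells and none in GFP+ cells, which is at least 29.2-fold lower (adjusted p = 0.00906). Dyrk3 680, with 66 counts over the GFP- libraries, was at 0 in GFP+ cells and not tested. Dyrk3 681 made up 94.8% ± 6.79 (SD, n = 3) of Dyrk3 counts at day 0 and Dyrk4 625 only 47% ± 8.39 of Dyrk4 counts. In GFP+ cells these shares were 100% and 88.9% ± 7.06.

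The 5 higher hairpins were not equally stable. Clk4 747 and Clk1 666 were called in all 13 other settings tried, with log2 fold changes of 2.42 to 3.28 and 1.03 to 1.87. With the replicate letter as a block in the fit, Clk1 666 was barely under the threshold (adjusted p = 0.0499). Its adjusted p was 0.0352, 0.0322 and 0.034 without GFP- replicates A, B and C. The highest adjusted p of Clk4 747 was 0.0132, with the block. Set against the median of all hairpins in place of 0, the log2 fold changes of Clk4 747, Dyrk4 625, Clk1 666, Dyrk3 681 and Clk1 664 were 4.04, 2.75, 2.67, 2.23 and 1.95. That median includes 463 hairpins called lower at 0 in GFP+ cells, which had to be lower. These 5 values are therefore a description. Dyrk4 625 missed the threshold without GFP- replicate A (adjusted p = 0.0608) or C (0.0591), or with the replicate letter as a block in the fit (0.0744). Dyrk3 681 missed it without each GFP- library in turn (0.0525, 0.0742 and 0.0719 without A, B and C), with that block (0.158), and under total count scaling (log2 fold change 0.57, adjusted p = 0.13). Clk1 664 was called in 4 of the 13 settings. Its adjusted p was 0.109, 0.146 and 0.137 without GFP- replicates A, B and C in turn and 0.0556 without GFP+ replicate C, and its log2 fold change was 0.70 without GFP+ replicate B. All adjusted p are from edgeR's quasi-likelihood test. The number of members called higher was therefore 2 without GFP- replicate A or C, where 5.04% and 4.96% of all hairpins tested were called higher, and 3 without GFP- replicate B (5.31%). At 2 of 43 the members' share was no longer above that of all hairpins.

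The higher members were common hairpins. Their GFP- means ran from 655 to 1300 CPM (median 760), against 14.5 to 581 CPM (median 43.3) for the lower members and 24.2 to 1430 CPM (median 175) for those tested and not called. At 500 CPM or more at day 0, 3 of 7 members were called higher (42.9%, against 15.1% of all hairpins of that level). From 200 to under 500 CPM it was 2 of 13 (15.4%, against 9.93%). At the 2 levels under 200 CPM, 2.21% and 5.55% of all hairpins were called higher. Of the 22 and 17 members there, 14 and 2 were not tested, and edgeR called none of the rest higher, with none at an unadjusted p under 0.05 in that direction. The exactTest called none there, and DESeq2 called Dyrk1a 594. Of all member counts, the 5 higher hairpins held 28.6% ± 0.743 (SD, n = 3) at day 0, 31.8% ± 0.997 at day 7, 35.5% ± 1.5 in GFP- cells and 76.5% ± 4.13 in GFP+ cells. They were chosen on the last of these groups, so these shares are a description.

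Hipk1 709 came nearest to joining them. HIPK1 is a nuclear corepressor kinase close in sequence to HIPK2. The hairpin had 550, 594 and 579 CPM in GFP- cells and 1590, 586 and 1860 CPM in GFP+ cells, so GFP+ replicates A and C were high and replicate B lay among the GFP- libraries. It was not called in the main test (log2 fold change 1.23, adjusted p = 0.09, edgeR's quasi-likelihood test). By the same test it was called with all 4 groups in 1 fit (1.21, adjusted p = 0.0187) and without GFP+ replicate B (1.58, adjusted p = 0.000366). Dyrk1a 594, at 26, 17 and 29.6 CPM in GFP- cells and 66.8, 59.5 and 50.2 CPM in GFP+ cells, did not overlap between groups, yet its log2 fold change of 1.28 did not pass (adjusted p = 0.197).

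Among SRPK hairpins, 1 of the common ones was called lower. Srpk2 717 had 337, 399 and 398 CPM in GFP- cells and 48.2, 19.4 and 18.1 CPM in GFP+ cells, for a log2 fold change of -3.72 (SE 0.664, adjusted p = 0.00794, edgeR's quasi-likelihood test). Srpk2 715 looked alike, at 279, 316 and 224 CPM and then 14.8, 0 and 12.4 CPM, but just missed the threshold (adjusted p = 0.0555). Without GFP+ replicate B it was called (log2 fold change -4.33, adjusted p = 0.000752). The gene's last hairpin, Srpk2 716, had a log2 fold change of -0.54 (adjusted p = 0.308). Srpk2 was the only member gene besides Hipk3 with no hairpin at 0 in all GFP+ libraries.

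Srpk3, known as a muscle-restricted SR protein kinase, and Srpk1 were thinner. Srpk3 2418 had 84, 109 and 193 counts in GFP- cells and none in GFP+ cells, which is at least 29.5-fold lower (adjusted p = 0.00814, edgeR's quasi-likelihood test). Srpk3 2408 did not pass (log2 fold change -3.63, adjusted p = 0.172), and Srpk3 2389 was not tested. Only 1 of the 3 Srpk1 hairpins was tested, 669, and it was lower. Srpk1 670 and 672 had no count in either sorted fraction. Prpf4b, whose kinase is an essential splicing factor, had no called hairpin in the main quasi-likelihood test. Its hairpins 2176 and 2178 had log2 fold changes of -0.63 and -3.47 (adjusted p = 0.409 and 0.15), with unadjusted p of 0.264 and 0.0661, and 2177 was not tested. The exactTest called neither. DESeq2 called Prpf4b 2178 lower, as did edgeR's quasi-likelihood test with all 4 groups in 1 fit. Without GFP+ replicate B the quasi-likelihood test also called it lower (log2 fold change -2.90, adjusted p = 0.0125).

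The clearest loss from a common hairpin was in Hipk2, a kinase that phosphorylates p53 after DNA damage. Hipk2 605 had 446, 522 and 395 CPM in GFP- cells and 36, 38.3 and 17.6 CPM in GFP+ cells. The lowest GFP- library was still well above the highest GFP+ library. The log2 fold change was -3.89 (SE 0.577, adjusted p = 0.00736, edgeR's quasi-likelihood test). Among the other Hipk2 hairpins, 602 was at 0 in both sorted fractions. Hairpins 603 and 604 did not pass (log2 fold changes of -2.78 and -1.10, adjusted p = 0.354 and 0.196).

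Hairpin Hipk1 708 went from 121, 95 and 92 counts to 0, at least 22.7-fold lower (adjusted p = 0.00736, edgeR's quasi-likelihood test), while Hipk1 707 had a log2 fold change of -1.81 (adjusted p = 0.495). Hipk3, a kinase first found in multidrug-resistant cells, kept all 4 of its hairpins in GFP+ cells, and none was called. They had log2 fold changes of -2.37 to -0.54, and none had an unadjusted p under 0.05, by edgeR's quasi-likelihood test. Neither the exactTest nor DESeq2 called any of them. The most common of them, Hipk3 769, had 1530, 1340 and 1410 CPM in GFP- cells and 605, 1230 and 716 CPM in GFP+ cells. The groups did not overlap, but GFP+ replicate B lay close to the GFP- libraries. Without replicate B the hairpin was called lower (log2 fold change -1.12, adjusted p = 0.0014).

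In Clk2, Dyrk1a and Dyrk1b the lower calls were mostly hairpins that vanished. CLK2 phosphorylates SR proteins like its relatives, DYRK1A is the dosage-sensitive kinase encoded in the Down syndrome region of its human chromosome, and DYRK1B is known for keeping cells quiescent. Clk2 632 had 359, 335 and 429 counts in GFP- cells, Dyrk1b 610 had 236, 160 and 212, Dyrk1b 607 had 89, 149 and 36, and Dyrk1a 598 had 59, 83 and 32. All of these had 0 counts in every GFP+ library, passed the filter through GFP- counts alone and so had to be lower. They were at least 84.1-fold (Clk2 632), 45.3-fold (Dyrk1b 610), 19.5-fold (Dyrk1b 607) and 12.5-fold (Dyrk1a 598) lower, with adjusted p between 0.00736 and 0.009 by edgeR's quasi-likelihood test. These bounds follow the GFP- count, so a smaller bound is not a smaller loss.

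The remaining lower calls, named after their values were seen, were Clk2 635, Clk3 741, Srpk1 669 and Hipk2 606. Clk2 635 kept counts in GFP+ cells, with 575, 554 and 614 CPM in GFP- and 99.6, 35.8 and 119 CPM in GFP+ cells (log2 fold change -2.77, SE 0.582, adjusted p = 0.0122, edgeR's quasi-likelihood test). Clk3 741 and Srpk1 669 went to 0 and were at least 23.3-fold and 18.9-fold lower. Hipk2 606 went from 643 counts to 8, all in GFP+ replicate A (adjusted p = 0.0478). Leaving out a library ended a lower call for 3 members. Hipk2 606 lost it without any 1 of the GFP- libraries (0.12, 0.119 and 0.138 without A, B and C) or GFP+ replicate C (0.0523). Clk2 635 lost it without GFP- replicate A (0.0517) or C (0.0555), and Dyrk4 622 without GFP- replicate C (0.0542). In turn, members not called with all libraries became lower without 1 of them. Besides those given with their gene, these were Hipk2 603, Dyrk1a 595 and Srpk3 2408 without GFP+ replicate A (adjusted p = 0.0133, 0.0129 and 0.0417), Hipk2 604 without replicate B (0.00804) and Dyrk4 624 without replicate C (0.0117), by edgeR's quasi-likelihood test. Hipk2 603, Dyrk1a 595 and Dyrk4 624 had all their GFP+ counts in the library left out. They were then at 0 in GFP+ cells and had to be lower.

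Read by gene, 12 of the 15 genes had at least 1 lower hairpin (80%, against 62% of the 732 symbols) and 4 had a higher one (26.7%, against 25.4%), and Clk1, Dyrk3 and Dyrk4 had both. Only Hipk2, Clk2 and Srpk2 had a lower hairpin with counts in GFP+ cells. In the other genes every lower hairpin was at 0 there and had to be lower, so the 80% is a description. Only Clk1 had more than 1 higher hairpin, and it had 1 in 9 of the 13 other settings, RLE scaling and the exactTest among them. Hipk3 and Prpf4b had none called. Clk2 also held the least repeatable value. Clk2 636 had 329, 397 and 328 counts in the GFP- libraries and 0, 534 and 0 in GFP+ replicates A, B and C, so 1 GFP+ library held all of its counts. It was not called (log2 fold change 0.26, SE 2.54, adjusted p = 0.949, edgeR's quasi-likelihood test). Without replicate B it was at 0 in GFP+ cells, had to be lower and was called so (adjusted p = 0.00112). Clk2 633 (log2 fold change 0.87), Clk3 739 (-1.58), Dyrk1a 595 (-3.56) and Dyrk1b 609 (-0.36) were tested and not called. The other members at 0 in all GFP+ libraries and not tested were Clk2 634, Clk3 740, Dyrk1a 596 and 597, and Dyrk1b 608 and 611.

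The GFP+ libraries were also set against Serum/LIF day 7, to ask whether the same hairpins stood out from unsorted cells. Both comparisons use the same GFP+ libraries and are not independent. Of 53 members tested, 5 were higher (9.43%, against 9.81% of all hairpins tested) and 27 lower (50.9%, against 31.9%), 22 of the latter at 0 in GFP+ cells. The share of higher members thus lay at the background. The median log2 fold change was -3.68 for members and -1.42 for all hairpins. With hairpins at 0 set to their bounds, the medians were -2.94 and -1.38. The 22 lower members at 0 passed the filter through their day 7 counts alone and so had to be lower. Over all hairpins, 738 of the 926 lower calls were of this kind. The shares called lower and the medians are therefore a description. With total count scaling the members' split was 3 higher and 31 lower, where 5.68% and 36.8% of all hairpins tested were called.

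The 5 higher hairpins were the 5 named above. Clk4 747 had 664, 800 and 746 CPM at day 7 and 5920, 6470 and 6150 CPM in GFP+ cells, for a log2 fold change of 3.07 (SE 0.135, adjusted p = 0.000307, edgeR's quasi-likelihood test). Dyrk4 625 (2.61, adjusted p = 0.00503), Dyrk3 681 (2.02, adjusted p = 0.00311), Clk1 664 (1.55, adjusted p = 0.00691) and Clk1 666 (1.16, adjusted p = 0.00542) followed. The GFP+ libraries lay above every day 7 library for each of them. Clk1 666 fell under the fold limit without GFP+ replicate B (log2 fold change 0.96). With total count scaling Clk1 666 and Clk1 664 were no longer called. With the replicate letter as a block in the fit, only Clk4 747 kept its call.

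The 5 lower hairpins with the smallest p were Clk2 632, Srpk3 2418, Clk1 667, Srpk2 717 and Clk2 634. All but Srpk2 717 were at 0 in GFP+ cells, at least 116-fold, 42-fold, 104-fold and 56.4-fold lower for Clk2 632, Srpk3 2418, Clk1 667 and Clk2 634. Srpk2 717 had 617, 601 and 525 CPM at day 7 and 49.3, 19.4 and 18.5 CPM in GFP+ cells (log2 fold change -4.32, SE 0.582, adjusted p = 0.00311, edgeR's quasi-likelihood test). The 4 at 0 passed the filter through their day 7 counts alone and so had to be lower. The call of Srpk2 717 was kept whichever library was left out. Clk2 634 was not tested against GFP- cells, where it had 8, 0 and 126 counts.

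Growth in serum without sorting, Serum/LIF day 7 against day 0, asked which hairpins changed as cells divided. Of 54 members tested, 1 was higher (1.85%, against 3.43% of all hairpins tested) and 3 were lower (5.56%, against 4%), with a median log2 fold change of 0.10. Srpk2 717 rose from 357, 392 and 310 CPM to 849, 825 and 703 CPM (log2 fold change 1.17, SE 0.161, adjusted p = 0.00473, edgeR's quasi-likelihood test). The same hairpin was thus higher after 7 days in serum and lower in GFP+ cells than in either of the groups they were set against. Clk1 667 fell from 525, 419 and 383 CPM to 192, 164 and 143 CPM (log2 fold change -1.41, SE 0.231, adjusted p = 0.00781). In both hairpins the day 0 and day 7 libraries did not overlap.

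Hipk1 708 and Srpk3 2418 were the other members lower at day 7. Hipk1 708 went from 256, 118 and 236 CPM to 33.5, 58.6 and 63.3 CPM (log2 fold change -1.97, SE 0.449, adjusted p = 0.0264, edgeR's quasi-likelihood test), and Srpk3 2418 from 152, 219 and 170 CPM to 83.1, 59.9 and 58.2 CPM (-1.43, SE 0.361, adjusted p = 0.0373). Without 1 library the adjusted p of Hipk1 708 ran up to 0.101 and it lost its call without day 0 replicate A or C or day 7 replicate A, B or C. Srpk3 2418 ran up to 0.147 and lost its call without day 0 replicate B or C or day 7 replicate A, B or C. Clk1 667 and Srpk2 717 were called whichever library was left out, so that without any 1 of the day 7 libraries Clk1 667 was the 1 member called lower. The number of members called higher was 3 without day 0 replicate B or C and 2 without day 7 replicate A or C. It included Clk1 666 without day 0 replicate C or day 7 replicate A or C, whose log2 fold change with all libraries, 1.00, was just under the limit (adjusted p = 0.00321).

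The last comparison, 2i GFP- against Serum/LIF day 7, set the fraction that lost UHRF1-GFP in 2i beside cells kept in serum. It shares libraries with the comparisons above. Of 55 members tested, edgeR's quasi-likelihood test called 0 higher (against 4.16% of all hairpins tested) and 2 lower (3.64%, against 4.83%), with a median log2 fold change of -0.15. At an unadjusted p under 0.05 by the same test, 7 of the 55 members were higher, as were 421 of all 2981 hairpins tested. The exactTest called 0 higher, and DESeq2 called 1, Dyrk3 679.

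Both lower members were rare hairpins that reached 0, passed the filter through their day 7 counts alone and so had to be lower. Dyrk1a 597 had 27, 64 and 101 counts at day 7 and none in GFP- cells, at least 12.2-fold lower (adjusted p = 0.0246, edgeR's quasi-likelihood test). Hipk2 602 had 17, 73 and 90 counts and then none, at least 11.4-fold lower (adjusted p = 0.0287). Both lost their calls without day 7 replicate A, B or C, with adjusted p of 0.0697 to 0.0966. Without GFP- replicate C, 4 members were called lower, Clk2 634 (log2 fold change -6.03) and Srpk3 2389 being added. Srpk3 2389 was then at 0 in the GFP- libraries left and had to be lower. Without GFP- replicate B, Dyrk3 679 was called higher (log2 fold change 3.16, adjusted p = 0.0297).

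The hairpins enriched in GFP+ cells were mixed in this comparison. Dyrk3 681 (log2 fold change 0.68, adjusted p = 0.00863), Dyrk4 625 (0.75, adjusted p = 0.0442) and Clk1 664 (0.48, adjusted p = 0.0111) were higher in GFP- cells than at day 7 by less than the fold limit, by edgeR's quasi-likelihood test. Clk1 666 went from 1430, 1750 and 1430 CPM at day 7 to 839, 1060 and 1090 CPM in GFP- cells (adjusted p = 0.0132), without overlap and again within the fold limit. Clk4 747 had 867, 1040 and 947 CPM at day 7 and 1020, 905 and 740 CPM in GFP- cells. These overlapped (log2 fold change -0.10, SE 0.14, adjusted p = 0.721). At day 0 the same hairpin had 1240, 1160 and 1200 CPM and at day 7, on that scale, 914, 1100 and 999 CPM (log2 fold change -0.25, adjusted p = 0.19).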

How the data were processed

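The authors amplified the integrated hairpins from genomic DNA by PCR, aligned the reads with Bowtie2 and tallied hairpins in Python. They deposited raw counts, whole numbers with no normalization, for 12 libraries. Their versions and reference, not given in the sources used here, stay unnamed, as does the meaning of "combined" in the sample titles. Replicates A, B and C are biological replicates per the figure legend, grown in triplicate after transduction. No source used here names separate infections, so a p-value here reflects the spread between libraries, which may be technical.

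Each of 4 comparisons was fitted alone, over all hairpins, with edgeR 4.0.16 (R 4.3.3): a filter of 0.5 CPM or more in 3 or more libraries, TMM scaling, and the quasi-likelihood test (glmQLFit, glmQLFTest). Calls needed an adjusted p (Benjamini-Hochberg) under 0.05 with a log2 fold change beyond 1 or -1. A hairpin at 0 in a group was given a bound, with a floor of 3 counts per library. All 15 symbols matched a mouse gene in a GRCm38.p6 gene table, used for names only.

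Named by rule were all hairpins of genes with a higher call, the 10 lower calls with the smallest p whose groups do not overlap, and up to 5 calls per direction in the other comparisons. Members, lists and rule were chosen with earlier results of these data known. Alternatives were RLE and total count scaling, no filter, exactTest, DESeq2 1.42.0, a replicate block, 1 fit of all 4 groups, and leaving out each library. Scripts were tested on simulated data.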

Additional observations from a re-analysis of the deposited data

How the results depend on the processing

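RLE scaling and the exactTest kept the members' counts of higher and lower calls in each comparison within 1.5 times, although both ended the call of Clk1 664. For 2i GFP+ against GFP-, 5 members higher and 16 lower became 3 higher with total count scaling, and 2 higher and 0 lower with the replicate block (5 each at an unadjusted p under 0.05 by edgeR), the block ending the calls of Dyrk4 625, Dyrk3 681 and Clk1 664 (adjusted p = 0.0744, 0.158 and 0.193). Members called higher ran from 2 to 5 when 1 library was left out. For GFP+ against day 7, 5 higher and 27 lower became 3 higher with total count scaling, and 1 higher and 0 lower with the replicate block (6 each at an unadjusted p under 0.05). For day 7 against day 0, 1 higher became 2 without the filter and 0 with all 4 groups in 1 fit (4 at an unadjusted p under 0.05), and was 1 to 3 without 1 library. The 3 lower became 6 with DESeq2, 0 with all groups (2 at an unadjusted p under 0.05), 1 with the block, and 1 to 2 without 1 library. For GFP- against day 7, 0 higher became 1 with DESeq2 and was 0 to 1 without 1 library. The 2 lower became 1 without the filter, 0 with all groups (4 at an unadjusted p under 0.05), 0 with the block (9), and 0 to 4 without 1 library. The cause was not tested.

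Over all hairpins, calls between GFP+ and GFP- were 223 higher and 610 lower, but 124 and 719 with total count scaling, which moved the median log2 fold change from -0.88 to -1.61, and 66 and 1 with the replicate block. They were 401 and 1002 without GFP+ replicate B, and 129 to 138 higher without 1 GFP- library. In GFP+ against day 7, 285 higher and 926 lower became 165 and 1068 with total count scaling, 86 and 5 with the replicate block, and 489 and 1384 without GFP+ replicate B. With all 4 groups in 1 fit, 104 higher and 121 lower at day 7 against day 0 became 11 and 4, and 124 and 144 in GFP- against day 7 became 13 and 6.

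Same-letter libraries did not deviate together (correlations of -0.039 to 0.014, and 1 of 12 libraries was closest to its own letter), so the counts gave no sign of pairing by letter. Such a check cannot exclude a pairing. Whether same-letter GFP+ and GFP- fractions were sorted from the same culture is not stated in the sources used here. A hairpin at 0 in GFP+ cells gives only a bound, which held for 28 of the 59 members, and 16 of these could not be tested. GFP+ replicates A and C had more counts in total (4185076 and 4656234) than any GFP- library (2642014 to 3302331), and replicate B had fewer (2435551). Each GFP+ library detected fewer members (23 to 28) than any GFP- library (47 to 50). A role of the total count was not tested.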

Other observations

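Some members were absent from 1 day 0 library and common in another. At day 0, 10 of the 59 members (16.9%, against 12.7% of all hairpins) had 0 counts in at least 1 library and 100 or more in another, while at day 7 this held for 1 member (1.69%, against 0.771%). Hipk3 770 had 417, 0 and 232 counts at day 0 and 1028, 844 and 1288 at day 7. Dyrk1b 611 had 281, 0 and 680 counts at day 0 and 380, 974 and 573 at day 7. Dyrk1b 608 had 0, 412 and 27 counts and then 121, 127 and 55. These hairpins were picked for their day 0 counts, so their spread there is a description. Hipk3 770 was called higher at day 7 without day 0 replicate B (log2 fold change 1.52, adjusted p = 0.0299, edgeR's quasi-likelihood test) and not with all libraries.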
